A study of Rattus norvegicus with 40 samples.

Results

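Polysome loading of mRNAs was compared between fetal rat liver and adult rat liver regenerating after partial hepatectomy. The comparison used 14 of the 40 arrays of the study: 1 polysome array and 1 total RNA array from each of 4 fetal and 3 hepatectomy livers, all treated with dimethyl sulfoxide (DMSO), the solvent of the study's drug. Arrays of equal model, treatment and replicate number were taken as the 2 fractions of 1 liver. All animals were Sprague Dawley rats. Fetuses received DMSO by injection at gestation day 19, and liver was collected at day 20, a stage of asynchronous hepatocyte division. Adults of 125 to 150 g were injected with DMSO 1 h before removal of most of the liver, and the regenerating remnant was collected after 24 h, during synchronous division. Livers of the same models treated with rapamycin, an inhibitor of the growth kinase mTOR, at 50 µg per fetus or 250 µg per 100 g of body weight, gave a second set of 14 arrays. Adult rats fasted for 48 h and refed for 3 h, also DMSO-treated, appear as side-by-side values (6 arrays, n = 3 livers).

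Polysomes are mRNAs carrying several ribosomes, separated here from free mRNA and single ribosomes by sedimentation through sucrose. An mRNA moves into them when initiation outpaces the end of translation, and a long coding sequence can hold more ribosomes than a short one. Growth signals acting through mTOR are known above all for controlling mRNAs that begin with a 5′ terminal oligopyrimidine (TOP) tract, which encode ribosomal proteins and several translation factors. Fetal liver houses blood formation beside its hepatocytes, which the adult liver does not.

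Loading is given as the log2 intensity in polysome RNA minus the log2 intensity in total RNA of the same liver, so a loading of 1 stands for a polysome intensity of 2 times the total intensity. Differences are fetal minus hepatectomy, with the standard error of the fit (SE), and p-values are two-sided from limma, adjusted by the Benjamini-Hochberg method over all 10860 transcript clusters tested, with a threshold of 0.05. Every array carried 100 ng of labelled RNA and was scaled to the others, so loading is relative to the other mRNAs of the same fraction, and how much mRNA sat on polysomes was not measured. Which part of the gradient was collected, and what was pooled in the pooled polysome preparations, was not stated in the labels.

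Both groups were liver by their markers: all 11 hepatocyte markers on the array passed the intensity level of 6.70 (log2) in total RNA of both models. The 29 erythroid markers summed to intensities of 113440 to 182800 in fetal total RNA, against 21761 to 27177 in hepatectomy total RNA, with 1 and 8 of them below that level. The 24 granulocyte and mast cell markers summed to 41325 to 45419 in fetal and 2170 to 2380 in hepatectomy total RNA, with 6 and 17 of them below the level. In bulk RNA, fewer cells of a type and less RNA per cell cannot be told apart, and the part that blood-forming cells have in any difference below was not tested. The 3 hepatectomy polysome arrays carry a refeeding time point in their labels, against their titles. Their mean over 44 mitosis genes was 9.88 to 10.30 (log2), against 6.18 to 6.30 in the refed polysome arrays, and the titles were followed.

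The 4 fetal livers fell into pairs. Deviations of their total RNA arrays from the fetal mean correlated at 0.63 between livers 1 and 2 and at 0.56 between livers 3 and 4, and at -0.81 to -0.79 across the pairs. The polysome arrays did the same (0.44, 0.54, and -0.83 to -0.67). The labels give no reason for the pairs, and results that moved with them are given for each pair. Across transcript clusters the loadings of 2 fetal livers correlated at 0.63 to 0.72, those of 2 hepatectomy livers at 0.85 to 0.87, and those of a fetal with a hepatectomy liver at 0.35 to 0.67. Fetal liver 2 stood nearest to the hepatectomy livers (0.59 to 0.67, against 0.35 to 0.53 for the other fetal livers).

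Relative to the other mRNAs, loading in fetal liver was higher for 11 of 19 aminoacyl-tRNA synthetase mRNAs and lower for 0, and lower for 36 of 68 ribosomal protein, 31 of 69 mitochondrial ribosomal and 10 of 17 histone mRNAs, with 0, 0 and 1 higher. Of the 10860 transcript clusters, 823 (7.58%) had higher and 1640 (15.1%) lower loading in fetal liver, together 22.7%. Over a 1.5-fold difference lay 418 and 870 of them, and over 2-fold 42 and 92. The median difference over all clusters was -0.07 (SD 0.37). Of the 823 higher clusters, 574 had a mean loading above 0 in fetal and below 0 in hepatectomy liver. Of the 1640 lower ones, 757 had a mean loading below 0 in fetal and above 0 in hepatectomy liver, and 682 had one above 0 in both. The higher share of the calls, 33.4%, depended on the scaling: it was 44.5% after cyclic loess and 46.1% after quantile normalization over the 14 arrays.

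Counts of calls leaned on single livers. With fetal livers 1 and 2 alone against the 3 hepatectomy livers, 679 clusters were higher and 901 lower, and with fetal livers 3 and 4 alone 761 and 2141. Leaving out hepatectomy liver 1, 2 or 3 left 519 and 973, 519 and 852, and 382 and 834. None of the 2463 calls changed sign in any of these fits, which reuse livers that made the calls. All 4 fetal livers lay above all 3 hepatectomy livers in 1259 clusters (11.6%) and below them in 2213 (20.4%). A single value tested on its own with 4 against 3 livers cannot reach an exact two-sided p under 0.0571, so calls come from the fit across all clusters, with 5 residual degrees of freedom.

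Among the 12 largest differences toward fetal liver, of clusters measured in both models (a group mean at the intensity level in polysome or total RNA), were mRNAs of several very large proteins. Fasn encodes fatty acid synthase, the multi-enzyme chain that builds palmitate. Its polysome intensities were 2458, 4063, 3079 and 3992 in fetal livers, against 1395, 1277 and 642 in hepatectomy livers, while its total RNA intensities were 2297, 2661, 2453 and 3016 against 2281, 2470 and 1179. The loadings were 0.10, 0.61, 0.33 and 0.40 in fetal and -0.71, -0.95 and -0.88 in hepatectomy livers, with no overlap (difference 1.21 ± 0.14 SE, adjusted p = 0.000371). So in fetal liver the mRNA was richer in polysome than in total RNA, and in hepatectomy liver it was poorer.

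Dync1h1, the heavy chain of the motor cytoplasmic dynein, had loadings of 0.28, 0.26, 0.36 and 0.51 in fetal livers, against -0.92, -0.75 and -0.81 in hepatectomy livers (1.18 ± 0.13, adjusted p = 0.00037). Its total RNA differed by 0.04 (log2). Snrnp200, the spliceosome's Brr2 helicase, had 0.47, 0.29, 0.31 and 0.30 in fetal and -0.67, -0.84 and -1.19 in hepatectomy livers (1.25 ± 0.14). The same separation held for Acaca, the acetyl-CoA carboxylase that feeds fatty acid synthase (1.17), and for Cad, the fused enzyme that starts pyrimidine synthesis (1.18). It also held for Abcc6, a membrane transporter of the ABC family (1.25), Oplah, 5-oxoprolinase of glutathione turnover (1.24), Mybbp1a, a nucleolar protein (1.17), Hells, a chromatin remodelling helicase (1.16), and Top2a, the topoisomerase of dividing cells (1.14). Adjusted p was between 0.00037 and 0.00167 for these 7 genes and those above.

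The other 2 of the 12 were of another kind. H19, an imprinted noncoding RNA abundant in fetal liver, had loadings of -0.43, -0.54, -0.43 and 0.03 in fetal livers. In hepatectomy livers they were -1.26, -1.56 and -1.67 (difference 1.15 ± 0.15, adjusted p = 0.000698). So H19 was poorer in polysome than in total RNA of every hepatectomy liver. Its fetal total RNA intensities, 11898 to 17523, lay toward the top of the scale (28447), where differences may be compressed. Ces1c, a carboxylesterase, had the largest difference of the 12 (1.27 ± 0.36, adjusted p = 0.0208), but its groups overlapped (1.49, 0.51, 1.22 and -0.54 in fetal, -0.34, -0.56 and -0.92 in hepatectomy livers). Its total RNA intensity was 43.4 to 211 in fetal livers, against 5352 to 8201 in hepatectomy livers, and 3 of the 7 fits without 1 liver lost the call.

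**Figure D1:**
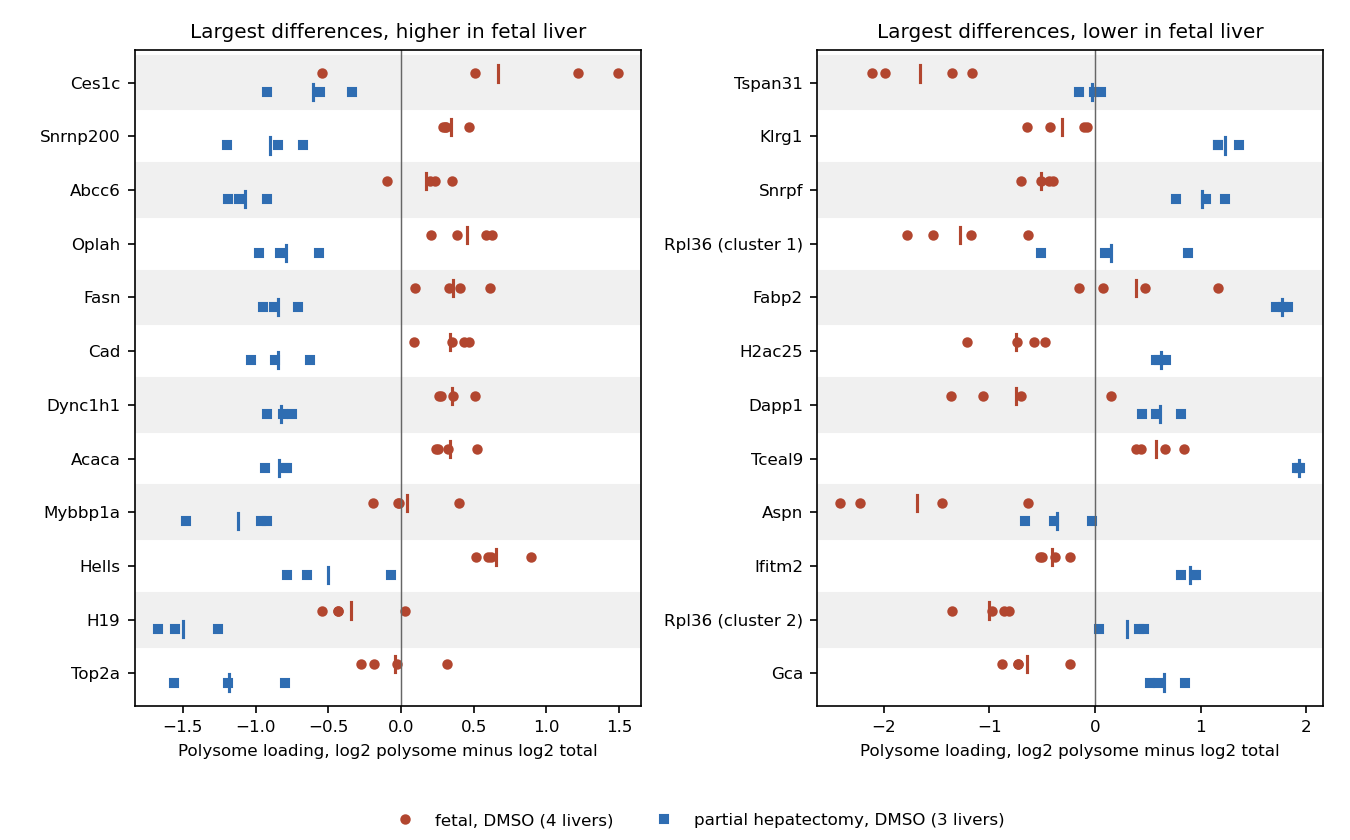
Loading (log2 polysome minus log2 total) of the 12 clusters with the largest difference in each direction among those measured in both models, with 1 point per liver and a vertical bar at the group mean. Fetal and hepatectomy livers overlap for Ces1c on the left and Aspn on the right, and are apart for the other 22.

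The 12 largest differences the other way, again of clusters measured in both models, came from genes of mixed function. Tspan31, a tetraspanin of the cell membrane, had loadings of -1.99, -1.36, -1.17 and -2.11 in fetal livers, against -0.01, 0.06 and -0.15 in hepatectomy livers (-1.62 ± 0.19, adjusted p = 0.000483). Its total RNA intensity stayed within 4543 to 6956 in fetal and 8470 to 9046 in hepatectomy livers. Snrpf, the F protein of the Sm ring of spliceosomal particles, had -0.43, -0.51, -0.40 and -0.70 in fetal and 1.24, 1.05 and 0.77 in hepatectomy livers (-1.53 ± 0.15, adjusted p = 0.00037). In both genes the groups were far apart, but Tspan31 was poor in fetal polysomes at a hepatectomy loading near 0, while Snrpf was rich in hepatectomy polysomes.

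Tceal9, a small protein related to transcription elongation factor A, stayed polysome-rich in both models, with 0.43, 0.85, 0.39 and 0.66 in fetal and 1.92, 1.93 and 1.94 in hepatectomy livers (-1.35 ± 0.15). Fabp2, a fatty acid binding protein best known from intestine, had 1.17, 0.47, 0.07 and -0.15 in fetal and 1.72, 1.83 and 1.78 in hepatectomy livers (-1.38 ± 0.24). Its fetal livers were spread widely but all lay below. Ifitm2, an interferon-induced membrane protein, differed by -1.31 ± 0.13, although its total RNA was 2.36 (log2) higher in fetal liver, and its close relatives may share its probes. The other 6 genes were Klrg1 (-1.54), Rpl36 (2 clusters, -1.43 and -1.31), H2ac25 (-1.37), Dapp1 (-1.36), Aspn (-1.32) and Gca (-1.30), with adjusted p from 0.00037 to 0.0127. Klrg1, an inhibitory receptor of lymphocytes, had total RNA intensities of only 124 to 208 in fetal livers. H2ac25 had only 62.7 to 75.0 in hepatectomy total RNA, and Aspn only 39.1 to 74.6 in fetal polysome RNA, both near background.

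Some differences rest on a gene whose mean reached the intensity level, in polysome or total RNA, in only 1 of the models, so that the loading of the other group comes from a probe near background. Toward fetal liver they were led by Stfa3, a stefin protease inhibitor (1.30), Abcb1b, a multidrug transporter (1.19), and Dmbt1 (1.15), followed by Slco1a4, Prtn3 and Serpina3m (0.95, 0.94 and 0.87). In the other direction they were Itm2a (-1.67), the neutrophil granule genes Ngp (-1.48) and Mmp8 (-1.35), the chemokine Cxcl13 (-1.28), Tsx (-1.22) and Nat8 (-1.16). Cxcl13 lost its call in 6 of the 7 fits without 1 liver (-1.77 to -0.97). Of the clusters tested, 10462 were measured in both models, and these held 801 of the 823 higher and 1604 of the 1640 lower calls.

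Messenger RNAs of the cytosolic ribosome were less loaded in fetal liver. Of 68 ribosomal protein mRNAs tested (of 79 listed), 0 rose and 36 fell, and the median difference was -0.36, against -0.07 over all 10203 genes with 1 symbol, of which 777 rose and 1533 fell. The list's median loading in the single livers was 0.22, 0.05, 0.02 and -0.07 in fetal livers, against 0.47, 0.39 and 0.39 in hepatectomy livers. All fetal livers lay below all hepatectomy livers. The refed livers, set beside them, had a median loading of 0.73. Cyclic loess brought the list's median to -0.23, and the pairs of fetal livers gave -0.28 (livers 1 and 2) and -0.44 (livers 3 and 4).

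The gene starts of some of these mRNAs are printed here because the class is known for its TOP tract. Each window is 30 bases from RefSeq (rat build GRCr8), 5′ to 3′ on the gene's strand, that hold in capitals the longest run of C and T within 40 bases of the gene's annotated start. The first 4 encode ribosomal proteins that fell, the next 2 other TOP mRNAs that fell (Eef1b2 and Tpt1), and the last 2 TOP mRNAs that rose (Eef2 and Cct4). The printed runs of Tpt1 and Eef2 begin 17 and 19 bases before the annotated start and end before it. By that annotation they are not part of the mRNA, and no TOP tract is shown for these genes. The run of Rpl34 begins 15 bases before the start and that of Cct4 5 bases after it, so neither begins at it.
Rpl34: gcccgCCCCTTCCTTTTCCTCTTCCgggga
Rps13: tcctacctcgTTCTCTCTTTgcttccagac
Rplp1: gcgcatgtgaTCCTTTCCTCagctgccgcc
Rpl9: acgaaggacgTTCTCTCTTTgccccatcta
Eef1b2: ggtcccggCCCTTTTTCTCCCTCagcgctg
Tpt1: tccgcccgCTCCCCCCTCCCCCCgagcgcc
Eef2: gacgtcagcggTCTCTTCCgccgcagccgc
Cct4: tcggcttccgCCTTCTCTCCCggcgtcgct
They lie at chr2:221962274-221962303 (minus strand), chr1:180009640-180009669 (minus), chr8:71290854-71290883 (minus), chr14:43247576-43247605 (plus), chr9:72074085-72074114 (plus), chr15:57566119-57566148 (plus), chr7:9189239-9189268 (minus) and chr14:101193052-101193081 (plus), in the same order. A run of at least 8 consecutive C or T, on the transcribed strand and within 40 bases of the RefSeq start, was present in 85.7% of the 63 ribosomal protein genes with an entry, in 75.0% of 20 other TOP genes, and in 30.3% of all 27457 gene starts. Such a run is a description of these letters and does not show where transcription began in these livers.

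Rpl30, a large-subunit protein, showed the smallest error of the leading members, with loadings of -0.36, -0.49, -0.35 and -0.26 in fetal livers, against 0.62, 0.51 and 0.64 in hepatectomy livers (-0.96 ± 0.11, adjusted p = 0.00037). Rplp1, a stalk protein of the large subunit, had -1.42, -0.85, -0.85 and -1.18 in fetal and -0.07, -0.07 and -0.04 in hepatectomy livers (-1.01 ± 0.14), and refed livers had 0.79, 0.08 and 0.99. Rps13, a small-subunit protein, had 0.01, -0.05, -0.31 and -0.26 in fetal and 0.86, 0.80 and 0.68 in hepatectomy livers (-0.93 ± 0.13). The groups of these 3 mRNAs did not overlap. Of all 68 members, 0 had every fetal liver above and 41 every fetal liver below, against 11.6% and 20.4% of all clusters. Rpl34 fell by 0.96 (SE 0.18) and Rpl9 by 0.85 (SE 0.24), with the fetal pair 3 and 4 below the pair 1 and 2 in both genes, and 3 of the 7 fits without 1 liver lost the call of Rpl9.

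Not every ribosomal protein mRNA passed the test. Rps6, the phosphorylated substrate of the S6 kinases, differed by -0.30 ± 0.12 (adjusted p = 0.0805), with 0.20, -0.05, -0.25 and -0.14 in fetal and 0.19, 0.34 and 0.20 in hepatectomy livers. Rplp0, the base of the stalk, differed by -0.28 ± 0.10 (adjusted p = 0.0728). With fetal livers 3 and 4 alone both passed (Rps6 -0.44, Rplp0 -0.37, adjusted p = 0.014 and 0.027). There were 7 members with differences above 0, led by Rps25 (0.64, not past the threshold). Ribosomal protein genes have many processed copies in the genome, which array probes may share. For Rpl36, 3 clusters were tested: the 2 above and the one that represents the gene in the list (-0.61).

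TOP mRNAs that do not encode ribosomal proteins went both ways. Of 22 tested, 4 rose and 3 fell, and the median was -0.01 (0.11 after cyclic loess and after quantile normalization). These are 18.2% and 13.6%, against 7.62% and 15.0% of all genes, so the falls lie near the share of all genes. Eef1b2, an exchange factor of the elongation step, had -0.61, -0.33, -0.81 and -0.48 in fetal livers, against 0.38, 0.11 and 0.29 in hepatectomy livers (-0.82 ± 0.15, adjusted p = 0.0029). Tpt1, a small abundant growth-related protein, had -0.52, -0.65, -0.58 and -0.77 in fetal and 0.01, -0.11 and -0.19 in hepatectomy livers (-0.53 ± 0.10). Eef2, the large translocation factor, went the other way, with 0.09, 0.16, -0.004 and 0.11 in fetal and -0.41, -0.35 and -0.43 in hepatectomy livers (0.48 ± 0.09, adjusted p = 0.00392). All 3, picked from the calls, were apart between the groups. Of all 22 members, 4 were apart upward and 4 downward, as were 11.6% and 20.4% of all clusters. Ncl, the nucleolar protein nucleolin (0.61), and Cct4, a subunit of the TRiC chaperonin (0.52, lost in 3 of the 7 fits without 1 liver), also rose, while Eef1a1, the most abundant elongation factor, differed by 0.21 ± 0.10 (adjusted p = 0.138).

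Among initiation factors, calls went both ways within 1 complex. Of 32 tested, 5 rose and 6 fell, with a median of -0.13. These are 15.6% and 18.8%, against 7.62% and 15.0% of all genes, so the falls lie near the share of all genes. Eif3a, the largest scaffold subunit of eIF3, had loadings of 0.16, -0.28, 0.23 and 0.24 in fetal livers, against -0.76, -0.97 and -1.06 in hepatectomy livers (1.02 ± 0.15, adjusted p = 0.00122). Eif3i, a small WD-repeat subunit of the same complex, had 0.40, 0.77, 0.17 and 0.43 in fetal and 1.57, 1.11 and 0.87 in hepatectomy livers (-0.74 ± 0.19, adjusted p = 0.0129). Eif4g3, a scaffold of cap binding (0.70), and Eif5b, the subunit-joining GTPase (0.66), rose, and Eif1ax, a short factor of start-codon scanning, fell by 0.67. The call of Eif3i was lost with fetal livers 1 and 2 alone (-0.60, adjusted p = 0.074), as was that of Eif5b (0.56, adjusted p = 0.057).

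The 26 mTOR pathway mRNAs tested had 3 rises and 3 falls (median -0.04). Each is a share of 11.5%, against 7.62% of all genes that rose and 15.0% that fell. Mtor, the kinase itself, had 0.35, 0.24, 0.26 and 0.38 in fetal livers, against -0.80, -0.56 and -0.88 in hepatectomy livers (1.05 ± 0.13, adjusted p = 0.000594), and its refed loadings were -0.82, -0.10 and -1.04. Its partner Rptor, which recruits substrates to mTOR complex 1, rose by 0.55. Lamtor3, a small anchor of the complex at the lysosome, had -0.89, -0.16, -0.19 and -0.70 in fetal and 0.48, 0.58 and 0.53 in hepatectomy livers (-1.02 ± 0.17, adjusted p = 0.00201). Rheb, the small GTPase that activates mTOR, fell by 0.62, and Eif4ebp1, the short repressor of the cap-binding protein eIF4E, fell by 0.54. For each of these 5 genes, picked from the calls, the fetal and hepatectomy livers did not overlap. Of all 26 members, 4 had every fetal liver above and 8 every fetal liver below, as had 11.6% and 20.4% of all clusters.

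Aminoacyl-tRNA synthetases, the enzymes that charge tRNAs with amino acids, moved one way: 11 of 19 tested rose and 0 fell, with a median of 0.39. Their median loading was 0.14, 0.08, 0.08 and 0.06 in fetal livers, against -0.13, -0.25 and -0.46 in hepatectomy livers, with no overlap. Aars1, for alanine, had 0.43, 0.34, -0.02 and 0.36 in fetal and -0.56, -0.67 and -0.97 in hepatectomy livers (1.01 ± 0.14, adjusted p = 0.00103). Eprs1 (0.95), Iars1 (0.91), Lars1 (0.83) and Vars1 (0.73) followed. Wars1 had the lowest value (-0.50, not past the threshold).

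Ribosome biogenesis factors had 6 rises and 8 falls among 44 tested, and a median of 0.04. The shares were 13.6% and 18.2%, against 7.62% and 15.0% of all genes. Those that rose included Polr1a, the largest subunit of RNA polymerase I (0.68), and the processing factors Ftsj3 (0.66) and Nop14 (0.57). Those that fell included Nhp2, a small protein of the pseudouridylation particles (-0.79), and Rrp9 (-0.57), whose call was lost in 5 of the 7 fits without 1 liver. The list's median was 0.17 with fetal livers 1 and 2 and -0.07 with livers 3 and 4.

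**Figure D2:**
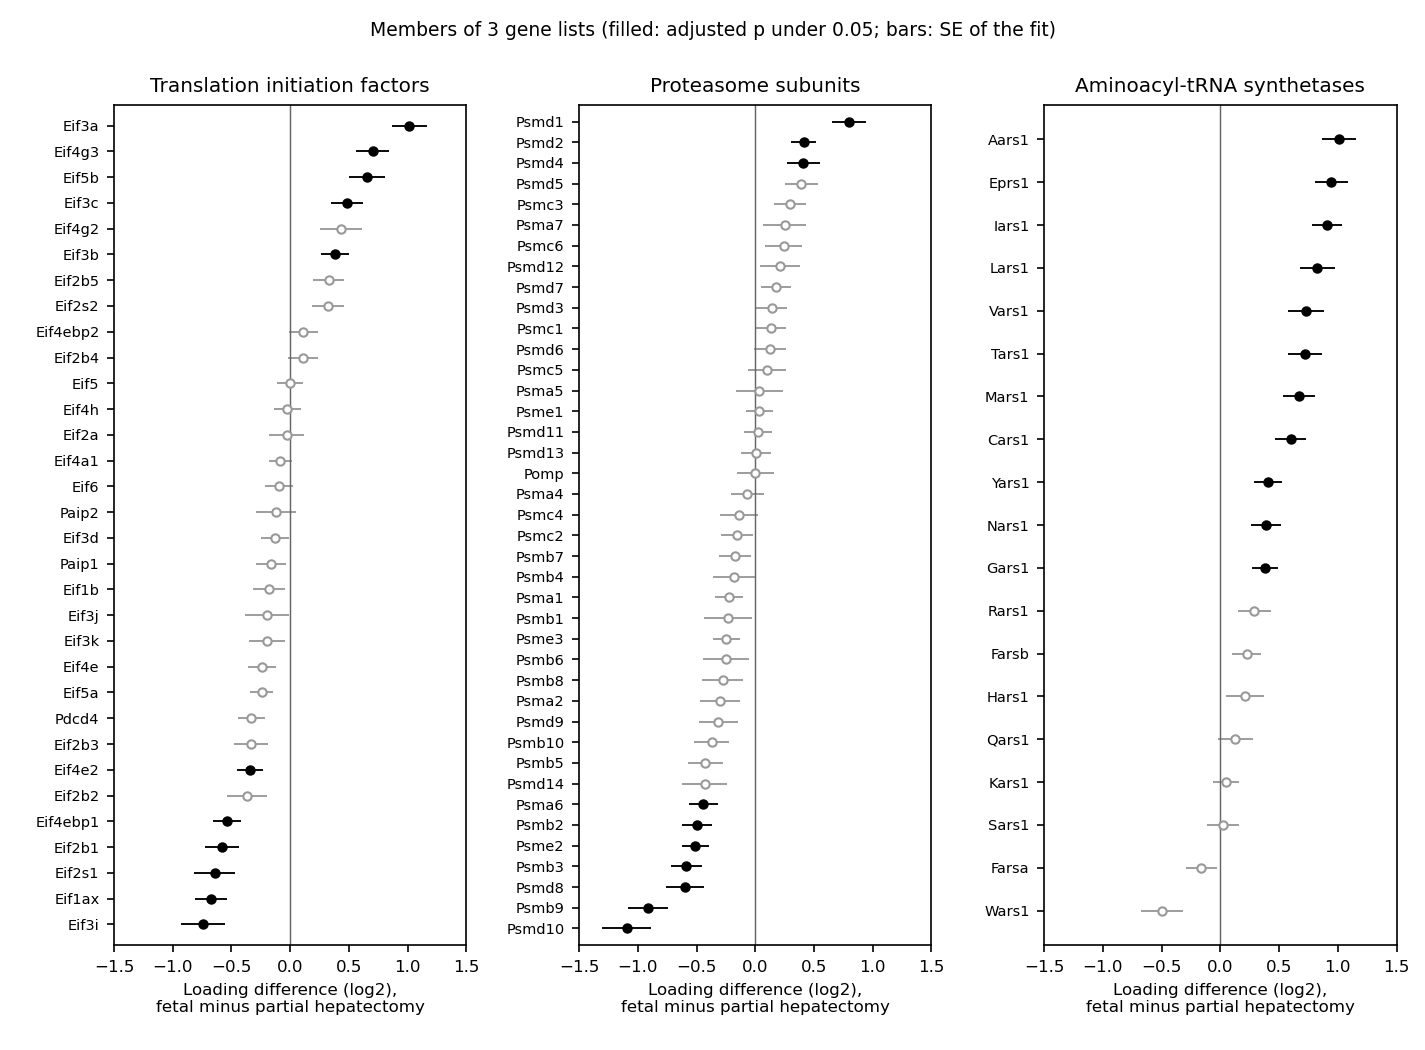
Loading difference (log2, fetal minus partial hepatectomy) of every tested member of 3 lists, with bars for the SE of the fit and filled points for adjusted p under 0.05. Initiation factors and proteasome subunits have filled points on both sides of 0, and the synthetases have them above 0 alone.

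By their list medians, mRNAs of mitochondrial proteins made in the cytosol were polysome-rich in both models and less so in fetal liver. Of 69 mitochondrial ribosomal protein mRNAs, 0 rose and 31 fell (median -0.41), with median loadings of 0.47, 0.56, 0.32 and 0.23 in fetal and 0.80, 0.72 and 0.76 in hepatectomy livers. Of 68 oxidative phosphorylation mRNAs, 1 rose and 27 fell (median -0.29), with 0.39, 0.41, 0.28 and 0.31 in fetal and 0.70, 0.61 and 0.68 in hepatectomy livers. Neither list's livers overlapped between the models. The pairs of fetal livers gave -0.26 (livers 1 and 2) and -0.54 (livers 3 and 4) for the mitochondrial ribosome.

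Ndufa2, a small accessory subunit of complex I, had the highest loadings of the leading members, 1.02, 1.13, 0.87 and 0.85 in fetal and 1.76, 1.88 and 1.75 in hepatectomy livers (-0.83 ± 0.13, adjusted p = 0.00176). It was polysome-rich in every liver, and less so in the fetal ones. Ndufb10 (-0.75), Ndufs8 (-0.73), Ndufc2 (-0.72) and Cox7a2, a small subunit of cytochrome oxidase (-0.70), fell too. The 1 member that rose was Ndufs1, the largest subunit of complex I (0.65), named after its value was seen. In the mitochondrial ribosome, Mrpl40 (-0.94), Mrpl4 (-0.91), Mrpl55 (-0.87), Mrpl57 (-0.82) and Mrps33 (-0.81) led.

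Of 40 proteasome subunits 3 rose and 7 fell (median -0.15), shares of 7.50% and 17.5% that lie near the 7.62% and 15.0% of all genes. Psmd1, the largest subunit of the regulatory particle, had 0.19, -0.15, 0.16 and 0.10 in fetal livers, against -0.49, -0.66 and -1.01 in hepatectomy livers (0.80 ± 0.14, adjusted p = 0.0029). Psmd10, the short assembly chaperone gankyrin, had -0.43, 0.22, -0.04 and -0.84 in fetal and 0.85, 0.71 and 0.90 in hepatectomy livers (-1.09 ± 0.21, adjusted p = 0.00387). Psmb9, a subunit of the immunoproteasome (-0.91), Psmd8 (-0.60) and Psmb3 (-0.59) fell. The list's median was 0.09 with fetal livers 1 and 2 and -0.26 with livers 3 and 4, and the calls of Psmd8 and Psmb3 were lost with livers 1 and 2 alone.

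Among the chaperones of the endoplasmic reticulum (ER), 1 of 23 rose and 8 fell (median -0.27). The ER's translocation and secretory machinery had 0 rises and 8 falls among 29 (median -0.21, -0.06 after cyclic loess). Ppic, a cyclophilin, had -0.97, -0.78, -0.75 and -1.39 in fetal livers, against -0.04, -0.06 and -0.20 in hepatectomy livers (-0.87 ± 0.16, adjusted p = 0.00351). Erp29 (-0.69), Manf (-0.65) and Creld2 (-0.64) fell with it, as did the translocon parts Ssr2 (-0.72), Sec61g (-0.64) and Sec61b (-0.56, lost in 3 of the 7 fits without 1 liver), the oligosaccharyltransferase part Ostc (-0.67) and Spcs1 of the signal peptidase (-0.58). Hyou1, the large ER chaperone of the Hsp110 family, rose by 0.68, while Hspa5, the main ER Hsp70, differed by -0.07 (adjusted p = 0.669).

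Cytosolic heat shock proteins had 6 rises and 2 falls among 17 (median 0.19), or 35.3% and 11.8%, against 7.62% and 15.0% of all genes. Hsph1, the cytosolic Hsp110, had 0.43, 0.07, 0.28 and 0.26 in fetal livers, against -0.48, -0.56 and -0.94 in hepatectomy livers (0.92 ± 0.15, adjusted p = 0.00177), and Hsp90aa1 (0.67) and Hspa4 (0.50) rose too. Hspa4 lost its call in 4 of the 7 fits without 1 liver. The 2 that fell were small heat shock proteins: Hspb1 had -0.08, 0.14, -0.45 and 0.06 in fetal and 0.71, 1.10 and 1.07 in hepatectomy livers (-1.04 ± 0.17), and Cryab differed by -1.01 ± 0.21. Members of both directions were present, with no overlap of the livers in Hsph1 and Hspb1.

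Selenoproteins, which need a stop codon read as selenocysteine, had 0 rises and 7 falls among 18 (median -0.33). Gpx2, a glutathione peroxidase, had -0.04, 0.20, 0.27 and -0.19 in fetal livers, against 1.24, 1.10 and 1.45 in hepatectomy livers (-1.20 ± 0.16, adjusted p = 0.000736). Gpx3, the peroxidase of plasma (-1.07), Selenof (-0.72), Selenok (-0.60) and Selenom (-0.57) fell as well. The call of Selenom was lost in 6 of the 7 fits without 1 liver.

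Replication-dependent histone mRNAs, which end in a stem-loop in place of a poly(A) tail, had 1 rise and 10 falls among 17 tested (median -0.40), with median loadings of 0.28, 0.22, 0.52 and 0.32 in fetal and 0.69, 0.59 and 0.68 in hepatectomy livers. H2ac25 had -0.58, -1.21, -0.47 and -0.74 in fetal and 0.58, 0.61 and 0.68 in hepatectomy livers (-1.37 ± 0.18, adjusted p = 0.000684). Its hepatectomy total RNA intensities were only 62.7 to 75.0, so its hepatectomy loading rests on a probe near background. H4c14 (-0.59), H2ac4 (-0.56, lost in 3 of the 7 fits without 1 liver) and H1f5 (-0.54) fell, and Hist3h2ba rose by 0.53, although its livers overlapped and 4 of the 7 fits without 1 liver lost its call. Histone genes are near copies of each other, so their probes may share signal.

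Proliferation genes passed the test in both directions. Of 47 DNA replication mRNAs, 10 rose and 3 fell (median -0.08, but 0.09 with fetal livers 1 and 2 and -0.17 with livers 3 and 4). These are 21.3% and 6.38%, against 7.62% and 15.0% of all genes, so the falls lie below the share of all genes. Pold1 and Pole, the catalytic subunits of the replicative polymerases, rose by 0.78 and 0.73, as did the helicase subunit Mcm2 (0.70) and the ligase Lig1 (0.63). Pold1 had 0.47, 0.26, 0.05 and 0.18 in fetal livers, against -0.48, -0.39 and -0.75 in hepatectomy livers (SE 0.15, adjusted p = 0.00351). Gins4, a short subunit of the GINS complex, fell by 0.65. Of 44 mitosis mRNAs, 7 rose and 8 fell (median -0.10), or 15.9% and 18.2%, against 7.62% and 15.0% of all genes: Top2a and the motor Kif4a (0.73) rose, and Cdkn3, a small phosphatase (-0.84), Cenpk (-0.78, lost in 3 of the 7 fits without 1 liver) and Knstrn (-0.75) of the kinetochore fell.

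Of the 10 lists of hepatocyte genes, 9 had a median difference above 0, against -0.07 over all genes, and in 0 of them did more members fall than rise. The exception was the fetal hepatocyte genes (-0.05). Medians were only 0.02 for cytochrome P450 and liver transcription factors, 0.03 for fatty acid and cholesterol synthesis and 0.04 for secreted plasma proteins. Without 1 liver the last 2 lists reached -0.044 and -0.040. Bile acid synthesis and transport mRNAs had 5 rises and 0 falls among 15 (median 0.44). Abcb11, the bile salt export pump, had 0.01, -0.55, -0.10 and 0.08 in fetal livers, against -0.76, -0.78 and -1.14 in hepatectomy livers (0.75 ± 0.16, adjusted p = 0.0058), and the transporters Abcb4 (0.72), Abcc3 (0.69) and Abcc2 (0.48) and the ligase Slc27a5 (0.69) rose too. All fetal livers lay above all hepatectomy livers for Abcb11, although its total RNA difference was -1.36 (log2). That mean joins unlike pairs of fetal livers. Abcb11 total RNA intensities were 895 and 1127 in fetal livers 1 and 2, and 4508 and 4818 in fetal livers 3 and 4. Hepatectomy livers had 4805 to 6473. The call of Abcc2 was lost in 4 of the 7 fits without 1 liver, and without hepatectomy liver 3 the list's median was 0.29.

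Fatty acid oxidation mRNAs had 5 rises and 1 fall among 20 (median 0.17), or 25% and 5%, against 7.62% and 15.0% of all genes. The rises were led by Cpt1a, the gate of fatty acid entry into mitochondria (0.84), Ehhadh (0.84, lost in 3 of the 7 fits without 1 liver) and Hadha (0.74). Cpt1a had 0.65 in fetal liver 1 and -0.35, -0.40 and -0.36 in the other fetal livers, against -0.91, -0.82 and -1.13 in hepatectomy livers, so that fetal liver 1 stood apart. Without it the difference was 0.58 (adjusted p = 0.00903), and without hepatectomy liver 3 the call was lost (0.75, adjusted p = 0.0777). Fatty acid and cholesterol synthesis mRNAs had 6 rises and 4 falls among 25 (median 0.03). The shares were 24.0% and 16.0%, against 7.62% and 15.0% of all genes. Beside Fasn and Acaca, Acacb (1.02) and Acly, which makes cytosolic acetyl-CoA (0.89), rose. Acacb had hepatectomy polysome intensities of only 103 to 135, near background. Thrsp, a small inducible regulator of lipogenesis, fell by 0.88, with fetal polysome intensities of only 73.0 to 102, near background. Urea cycle and amino acid breakdown mRNAs had 8 rises and 1 fall among 27 (median 0.09), or 29.6% and 3.70%, against the same shares of all genes.

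Arg1, the last enzyme of the urea cycle, was polysome-rich in both models, with 0.98, 1.14, 0.72 and 0.95 in fetal and 0.45, 0.26 and 0.14 in hepatectomy livers (0.66 ± 0.13, adjusted p = 0.00387). Cps1, its first enzyme and a large protein, rose by 0.53, and Prodh (0.88), Gldc (0.69) and Tat (0.91) rose too. Tat, which degrades tyrosine, did so with a total RNA difference of -5.61 (log2), and 2 of the 7 fits without 1 liver lost its call. Its total RNA intensities were only 58.5 and 83.7 in fetal livers 1 and 2, near background, and 628 and 650 in fetal livers 3 and 4. Hepatectomy livers had 9136 to 11423. Secreted plasma protein mRNAs, made on ER-bound ribosomes, had 3 rises and 3 falls among 51 (median 0.04). Each is a share of 5.88%, against 7.62% of all genes that rose and 15.0% that fell. Pon1 (0.68) and Itih1 (0.62) were up, and Hrg (-0.72), C9 (-0.61) and Serpinf1 (-0.43) down. Albumin (Alb) differed by 0.17 ± 0.09 (adjusted p = 0.215), transferrin (Tf) by 0.20 (0.147), transthyretin (Ttr) by 0.001 (0.992) and alpha-fetoprotein (Afp) by -0.16 (0.429), although Afp total RNA was 6.19 (log2) higher in fetal liver. Alb had intensities of 16927 to 21604, Tf of 15272 to 20391, Ttr of 16316 to 18490 and Eef1a1 of 12766 to 17291. In fetal livers Afp had 14919 to 19639. All lie near the top of the scale (28447), where differences may be compressed, so these genes' values set no limit on a difference in loading. After cyclic loess Alb (0.33, adjusted p = 0.012), Tf (0.37, 0.009) and Eef1a1 (0.38, 0.015) passed the threshold.

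**Figure D3:**
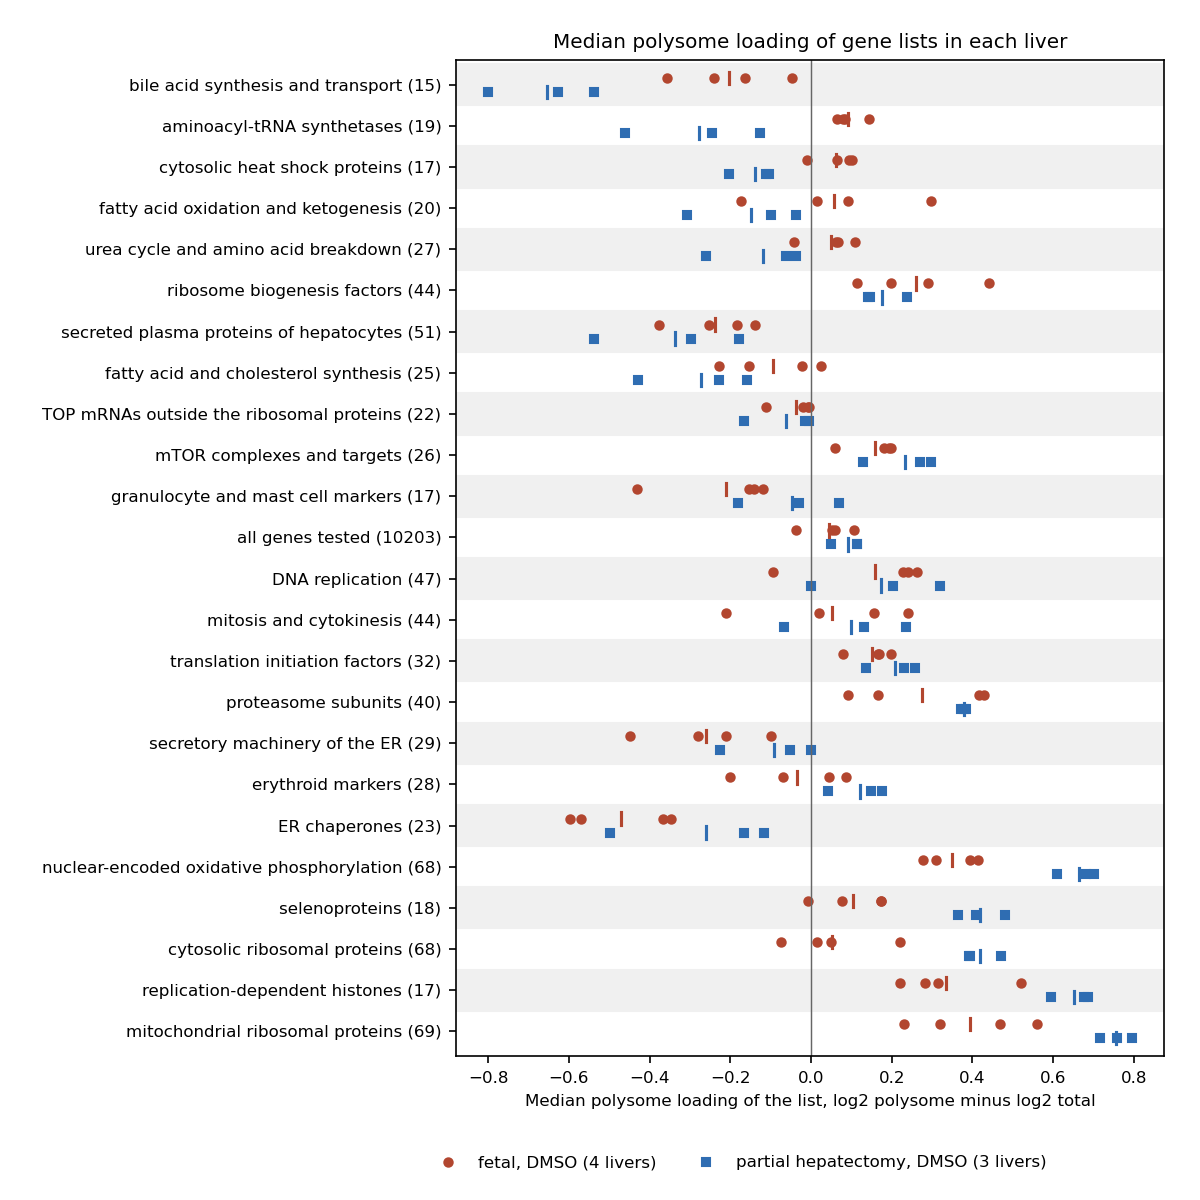
Median loading (log2 polysome minus log2 total) of each gene list in each liver, with the number of members tested in brackets, a vertical bar at the group mean, and lists ordered by their median difference. The fetal livers lie wholly below the hepatectomy livers for the ribosomal, mitochondrial ribosomal, oxidative phosphorylation, histone and selenoprotein lists, and wholly above them for the bile acid and synthetase lists and the heat shock proteins.

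Markers of the blood-forming cells of fetal liver were often near background in hepatectomy liver. Of 28 erythroid mRNAs tested, 22 were measured in both models, and 2 of these rose and 4 fell (median -0.18). Over all 28 the shares were 7.14% and 17.9%, near those of all genes (7.62% and 15.0%), and the median was -0.22, or -0.08 without hepatectomy liver 3. Hbb, a beta-globin chain, had 0.03, 0.02, 0.20 and 0.08 in fetal livers, against 0.48, 1.10 and 1.45 in hepatectomy livers (-0.93 ± 0.17, adjusted p = 0.00297). Globin genes are close copies, and intensities of 15898 to 19387 on the fetal Hbb arrays also lay near the top of the scale. Tfrc, the transferrin receptor, rose by 0.97 ± 0.15 (adjusted p = 0.00151). Of 17 granulocyte and mast cell mRNAs tested, 10 were measured in 1 model alone, so their differences say nothing of loading in the other. Of the 7 measured in both, limma called 0, with 1 at an unadjusted p under 0.05.

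Iron- and growth-related mRNAs with known translational switches were looked up one by one. Fth1, the ferritin heavy chain, whose translation is repressed by iron regulatory proteins when iron is scarce, had -0.23, -0.81, -0.15 and -0.10 in fetal livers, against -1.29, -1.04 and -0.79 in hepatectomy livers (0.72 ± 0.16, adjusted p = 0.00808). Fetal liver 2 overlapped the hepatectomy livers. Fth1 total RNA intensities, 14048 to 16539, lay near the top of the scale, where differences may be compressed. Ftl1, the light chain under the same switch, differed by 0.01 ± 0.10 (adjusted p = 0.97), Alas2 of erythroid haem synthesis by -0.29 (0.312) and the iron exporter Slc40a1 by 0.09 (0.652). Atf4, whose upstream reading frames hold back its translation, differed by 0.01 (0.982). Odc1 and Amd1 of polyamine synthesis differed by -0.25 (0.216) and -0.11 (0.635), Ccnd1 by -0.30 (0.177), Igf2 by -0.05 (0.877), and the reference genes Actb and Gapdh by -0.03 (0.806) and 0.08 (0.545). Gapdh (19252 to 21693), Actb (16108 to 19456) and Ftl1 (14460 to 20290) were near the top of the intensity scale on these arrays, where differences may be compressed, so their small values do not show equal loading.

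A contrast of large and small proteins was noticed in the values above, and 4 lists were then written to describe it. They were chosen after the values were seen, so their counts describe these livers and support nothing. Of 66 tested mRNAs of very large proteins, 46 rose and 0 fell, with a median difference of 0.61 and median loadings of 0.19, 0.12, 0.26 and 0.34 in fetal livers, against -0.50, -0.38 and -0.54 in hepatectomy livers. Refed livers had a median of -0.53. Prpf8, the core of the spliceosome (1.08), Tln1, the integrin anchor talin (1.09), Gcn1 of the amino acid response (1.07), Usp9x (1.03), Sptbn1 (1.01) and Flna (0.92) were among those that rose. Apob, the protein of lipoprotein particles, differed by 0.20, Insr, the insulin receptor, by 0.07, and Eea1 had the lowest difference (-0.04), none past the threshold.

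Small proteins showed the other side. Of 19 snRNP and LSm mRNAs, 11 fell and 0 rose (median -0.47), led after Snrpf by Lsm8 (-0.98), Lsm10 (-0.84) and Lsm2 (-0.79). Of 23 small proteins of mitochondrial import and assembly, 12 fell and 0 rose (median -0.49), among them Coa3 (-1.09) and Timm17a (-0.84). Of 39 other small proteins, 15 fell and 0 rose (median -0.32), among them Polr2j (-1.05), Cstb (-0.97) and the ubiquitin-like Nedd8 (-0.80). In all 3 lists the median loadings were above 0 in both models. For the import list they were 0.64, 0.69, 0.64 and 0.30 in fetal and 1.00, 0.95 and 1.15 in hepatectomy livers. Single members could lie below 0, as Snrpf did in the fetal livers. Protein and transcript lengths were not used here. Words for size beside single genes in the text were not given to every gene, and a relation of loading to protein size was not tested. The span of the gene in the genome, which includes introns, had a median of 43.2 kb over the genes called higher, 12.4 kb over those called lower and 20.8 kb over all tested, with a span for 98.1% to 99.3% of them.

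The differences in loading were small beside those in the amount of mRNA. Across clusters the fetal minus hepatectomy difference in total RNA correlated with that in polysome RNA at 0.92 and with the loading difference at -0.07 (Pearson's r across features, which share arrays and are not independent). Over 2-fold, 1357 clusters were called in total RNA and 134 in loading. The mean intensity of a cluster correlated with its loading difference at -0.08.

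Livers treated with rapamycin share no array with the DMSO livers and gave a separate set of values for the same comparison. There, 354 clusters (3.26%) were higher and 1040 (9.58%) lower in fetal liver. Of the 823 clusters higher under DMSO, 814 (98.9%) also had a difference above 0 under rapamycin, where 43.0% of all clusters did. Of the 1640 lower ones, 1626 (99.1%) were below 0, where 57.0% of all were. Called in the same direction under both treatments were 277 higher clusters (33.7% of the DMSO calls and 78.2% of the rapamycin calls) and 807 lower ones (49.2% and 77.6%), and 0 were called in opposite directions. Across features the differences correlated at 0.84. The change of the difference with treatment, fitted over all 14 livers of the 2 models, passed the threshold for 0 clusters in limma, with 177 at an unadjusted p under 0.05. With so few livers, a lack of calls does not show that the differences were equal under both treatments.

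The rapamycin counts rest on few livers. Without hepatectomy rapamycin liver 1, 2 or 3 they were 0 and 0, 32 and 177, and 0 and 2. Fetal rapamycin liver 1 stood near the hepatectomy livers: its loadings correlated with theirs at 0.61 to 0.64, against 0.23 to 0.41 for the other fetal rapamycin livers. Fetal rapamycin livers 2 to 4 correlated with each other at 0.43 to 0.65, and liver 1 with them at 0.47 to 0.63. Its median loading of the very large proteins was -0.32, with 0.04, 0.34 and 0.41 in the other fetal and -0.50, -0.33 and -0.46 in the hepatectomy rapamycin livers. Without it, 645 clusters were higher and 1809 lower.

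Of the 203 named clusters called under DMSO, 201 had the same sign under rapamycin, and C9 and Cyp2j4 did not. Fasn differed by 0.99 (adjusted p = 0.021), Dync1h1 by 1.03 (0.012), Mtor by 0.99 (0.011), Snrpf by -1.53 (0.01) and Tspan31 by -1.89 (0.0067). Among ribosomal protein mRNAs, 1 of 68 was higher and 2 were lower in the rapamycin livers, with a median of -0.16. Their median loadings under rapamycin were 0.39, 0.23, -0.30 and -0.11 in fetal and 0.33, 0.15 and 0.13 in hepatectomy livers, which overlap. Rpl30 differed by -0.33 (adjusted p = 0.27) and Tpt1 by -0.09 (0.64) in rapamycin livers. Under DMSO the ribosomal protein list had a median of -0.36 with 36 falls. The interaction tested whether single clusters differ from their DMSO values and called none, which does not show that the values are equal. The mitochondrial ribosomal list had a median of -0.41 with 20 falls, but its livers overlapped too (0.84, 0.41, 0.27 and 0.26 in fetal, 0.89, 0.72 and 0.86 in hepatectomy livers). The synthetases had 7 rises and a median of 0.32, with no overlap of the list medians.

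**Figure D4:**
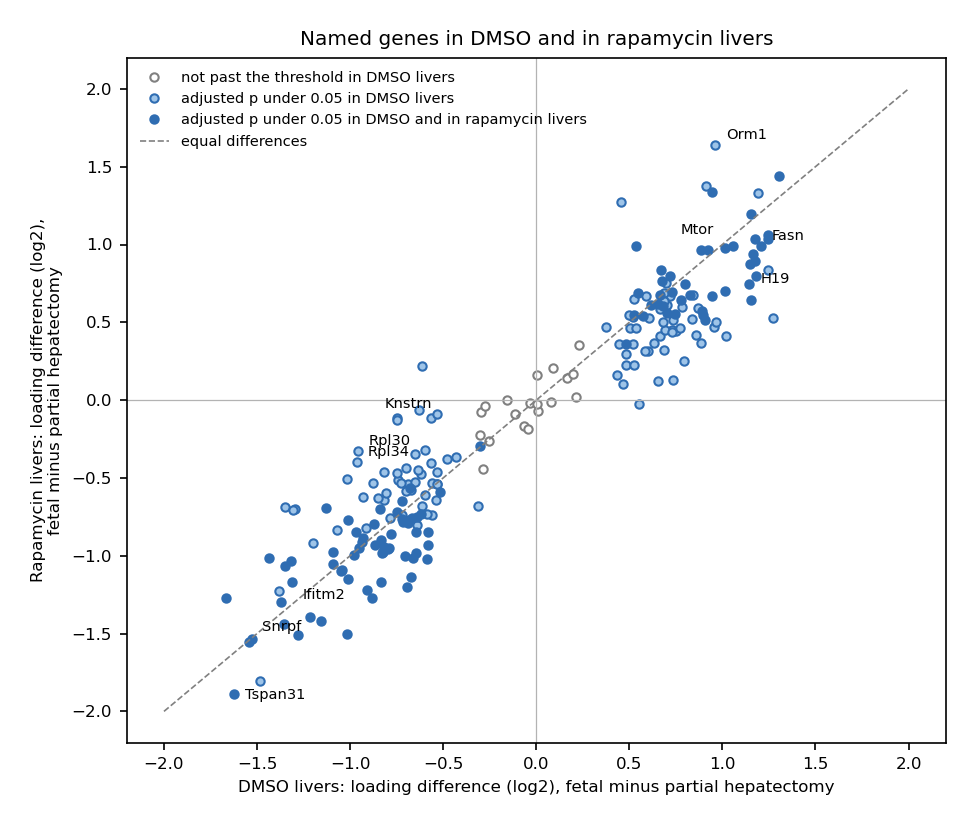
Loading difference (log2, fetal minus partial hepatectomy) of the named genes in DMSO livers (horizontal axis) and in rapamycin livers (vertical axis), with 1 point per transcript cluster and a dashed line of equal differences. Most were picked by their DMSO values, and 201 of the 203 called under DMSO lie on the same side of 0 on both axes.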

How the data were processed

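The deposited values were linear intensities of Affymetrix Rat Gene 1.0 ST arrays. Per the submitters' processing notes they were normalized with RMA; the set of arrays normalized together was not stated in the labels. Intensities ran from 3.77 to 28447 over 28826 transcript clusters and 40 arrays, with array medians of 7.09 to 7.39 (log2) in the 14 arrays compared. No read depth exists for arrays: precision is set by how many there are. Probe names came from the platform annotation: 15209 clusters had 1 symbol, 306 several and 13311 none here, and 15178 matched RefSeq.

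Values were log2-transformed. Named clusters were kept where their mean over all 40 arrays reached 6.70, the 30th percentile of such means, which left 10860. Loading per liver was fitted with limma 3.58.1 (R 4.3.3; lmFit and eBayes with an intensity trend) over the 7 livers, and the rapamycin livers were fitted likewise. Pairing of the fractions by replicate number was checked by the correlation of their deviations from the group means, which was 0.33 to 0.72 for every liver. In fetal rapamycin livers 1 and 4 another number correlated better. In the fetal DMSO livers the own number gave 0.63 to 0.69 and the best other number 0.60 to 0.61. The pairing there is therefore only weakly marked. In the hepatectomy DMSO livers these values were 0.51 to 0.69 and -0.34 to -0.15. No 2 of the 14 arrays were duplicates (smallest root mean square difference 0.263 log2). Nothing says that replicates came from separate litters or animals, so p-values measure only the spread between these samples.

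Named genes were the 12 largest calls each way, up to 5 called members of each list, a set of single genes, and up to 6 calls each way measured in 1 model. Other members were named after their values were seen. The members and lists were chosen with earlier results of these data known. A list is described by its counts and median, with the highest-intensity cluster standing for each gene. The fits were tested on simulated data. Alternatives covered the pairing, the scaling, the filter, the fit and the livers. Protein lengths were not used here.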

Additional observations from a re-analysis of the deposited data

Results flagged for a closer look

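In the 249 sets of 4 fetal values checked (222 named clusters and 27 list medians), 15 held a liver whose gap to the nearest other, over the whole range, passed the critical value of Dixon's outlier test. Chance alone flags about 1 in 20. Of the 15 values, 9 came from fetal liver 4.

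Single genes with a fetal liver far from the others were spread over all 4 livers. In fetal liver 4, the loading of Lig1 was -0.0036 (0.24 to 0.27 in the other fetal livers), that of Cd68, a macrophage protein, was -0.77 (-0.35 to -0.29), that of Eif4g3 was 0.66 (0.19 to 0.26), and that of Abcc2 was 0.15 (-0.41 to -0.36). In fetal liver 1, Cpt1a had 0.65 (-0.40 to -0.35) and Snrnp200 had 0.47 (0.29 to 0.31). In fetal liver 2, Eif3a had -0.28 (0.16 to 0.24) and Tf had -0.15 (at most 0.008 elsewhere). In fetal liver 3, Serpinf1 had -0.49 (-0.78 to -0.74).

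Among list medians, fetal liver 4 stood below the other fetal livers for DNA replication (-0.093, against 0.23 to 0.26), granulocyte and mast cell markers (-0.43, against -0.15 to -0.12), mTOR complexes and targets (0.060, against 0.18 to 0.20), small mitochondrial import and assembly proteins (0.30, against 0.64 to 0.69) and snRNP and LSm proteins (0.039, against 0.31 to 0.34). Fetal liver 2 stood below for TOP mRNAs outside the ribosomal proteins (-0.11, against -0.02 to -0.005).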

How the results depend on the processing

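None of the 2463 DMSO calls changed sign under any alternative, but their number depended on the setting. With the pairing dropped, all 20 livers fitted, other filters, no trend or robust estimates, each difference of group means stays as it was. No sign could change there. Rescaling or leaving out livers could change a sign, but those fits reuse the livers that made the calls. The fractions were taken as paired by replicate number. Without the pairing (no replicate block), 151 clusters were higher and 196 lower under DMSO and 99 and 317 under rapamycin. Of the 2463 calls 347 were kept, and 148 of the 222 named clusters were on the weaker side of the threshold. Leaving out 1 liver gave 382 to 819 higher and 834 to 1895 lower under DMSO, and 0 to 645 and 0 to 1809 under rapamycin, with 127 of the 203 named calls kept in every such fit. Igf1 lost its call in each of them. Fetal livers 1 and 2 alone gave 901 lower under DMSO and 556 higher under rapamycin, and livers 3 and 4 alone 1139 higher and 2717 lower under rapamycin. With all 20 livers in the fit, the rapamycin counts were 667 and 1624. Filters, the intensity trend and robust estimates kept both counts within 1.5 times. These pairs of fetal livers were compared after seeing the data.

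List medians moved beyond their spread in these cases. Under cyclic loess and quantile normalization they were 0.11 and 0.11 for TOP mRNAs outside the ribosomal proteins, 0.502 and 0.504 for synthetases, -0.17 and -0.18 for oxidative phosphorylation, -0.21 and -0.18 for other small proteins, -0.22 and -0.24 for selenoproteins, and -0.019 and -0.0031 for initiation factors. Cyclic loess gave -0.23 for ribosomal proteins, -0.29 for histones, -0.060 for the secretory machinery and 0.25 for the urea cycle. Quantile normalization gave 0.26 for heat shock proteins and 0.19 for fatty acid and cholesterol synthesis. Fetal livers 1 and 2 alone gave 0.094 for DNA replication, 0.092 for the proteasome, 0.17 for ribosome biogenesis, -0.26 for the mitochondrial ribosome and -0.21 for selenoproteins, and livers 3 and 4 gave -0.54 and -0.41 for the last 2 lists. Without 1 liver, medians ran from 0.29 to 0.48 for bile acid genes, 0.093 to 0.21 for heat shock proteins, -0.24 to -0.083 for erythroid markers, -0.044 to 0.16 for fatty acid and cholesterol synthesis, and -0.26 to -0.014 for granulocyte markers. The cause of these shifts was not tested. A description by protein length was planned and not run. Signal near background in 1 model limits what loading can be read there.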

Other observations

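Non-parenchymal liver cells were marked by lists whose summed total RNA was closer between the models than that of the blood-forming cells: 24096 to 27388 in fetal and 20953 to 26118 in hepatectomy livers for macrophages, and 15780 to 21815 and 21526 to 25268 for endothelium. Of 23 stellate cell and fibroblast mRNAs, 7 had higher and 2 lower loading in fetal liver (median 0.02). As shares these are 30.4% and 8.70%, against 7.62% and 15.0% of all genes. Fbn1, which encodes the matrix protein fibrillin, had -0.31, -0.43, -0.42 and -0.34 in fetal livers, against -0.80, -1.34 and -1.17 in hepatectomy livers (0.73 ± 0.15, adjusted p = 0.00523 in limma), with no overlap. Reln (0.73), Col4a1 of basement membranes (0.67) and the receptor Pdgfra (0.59) rose too, while Dcn, the small proteoglycan decorin (-1.13), and the galectin Lgals1 (-0.75) fell. Without hepatectomy liver 3, Reln (0.53) and Pdgfra (0.46) lost their calls, and Lgals1 lost its call in 3 of the 7 fits without 1 liver.

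Macrophage mRNAs had 3 rises and 2 falls among 17 (median 0.02), and endothelial mRNAs 3 and 2 among 19 (median -0.01). The shares were 17.6% and 11.8% for macrophage and 15.8% and 10.5% for endothelial mRNAs, against 7.62% and 15.0% of all genes. These are loadings in bulk liver RNA, not within a cell type. Among the macrophage mRNAs the receptors Mrc1 (0.78), Csf1r (0.60) and Cd163 (0.47) rose, and the complement chain C1qb (-0.69) and Cd68 (-0.53) fell. Csf1r, Cd163 and C1qb each lost the call in 4 of the 7 fits without 1 liver, and without hepatectomy liver 3 Csf1r was 0.33 and Mrc1 0.50. Among the endothelial mRNAs the receptor Flt1 (0.59), the nitric oxide synthase Nos3 (0.53) and the receptor Kdr (0.48) rose, and Emcn (-0.69) and Ramp2 (-0.58) fell. Kdr lost its call in 5 and Flt1 in 4 of these 7 fits, with 0.32 and 0.35 without hepatectomy liver 3. Of 28 autophagy mRNAs, Nbr1 rose (0.50), and Atg3 (-0.64), Atg14 (-0.62), Gabarapl2 (-0.52) and Bnip3 (-0.48) fell (median -0.13). The shares, 3.57% and 14.3%, lie near or below those of all genes. The call of Atg14 was lost in 5 of the 7 fits. Beside H19, the noncoding RNA Meg3 differed by 0.77 ± 0.19 (adjusted p = 0.0115 in limma), with 0.57, 0.04, 0.07 and 0.83 in fetal livers, against -0.33, -0.62 and -0.23 in hepatectomy livers.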
